A study of Mus musculus with 93 samples.

Results

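The constitutive proteasome subunit genes were read in white blood cells of tumor-bearing and tumor-free mice. The set held every gene whose single symbol is Psma, Psmb, Psmc or Psmd followed by a number, without the inducible catalytic subunits Psmb8, Psmb9 and Psmb10. The rule found 36 of the 18193 genes with a symbol on the arrays, 16 for the core particle and 20 for the regulatory particle or its assembly, and each gene was read by the probe set whose mean across the 93 arrays was highest. Cheek blood came from female MMTV/c-MYC transgenic mice (FVB/NJ) with advanced mammary tumors, and from wild type, tumor-free FVB/NJ females of like age and parity. The transgene carries c-MYC, or a more stable point mutant of it, behind the hormone-responsive mouse mammary tumor virus promoter, which is active mainly in the mammary gland, and all animals, controls included, were kept in continuous breeding. The submitters give an average age of 431 days at the last collection. Red cells were lysed before RNA was taken from the pelleted leukocytes, amplified and hybridized to Affymetrix mouse arrays. The labels number the tumor arrays within a training and a validation cohort. Late-numbered tumor arrays (training 6 to 32 and validation 9 to 33, 52 arrays) and early-numbered tumor arrays (training 1 to 5 and validation 1 to 8, 13 arrays) are described beside the 28 control arrays, 14 in each cohort. Each array is 1 sample in the labels, which name no animals, and the spread between samples is all that the errors and tests here can measure.

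The late-numbered and early-numbered sets are not groups that the labels name, and they differ in technical measures. The bacterial spike-in control dap averaged 8.56 ± 0.79 on the log2 scale in late-numbered tumor arrays, 2.70 ± 0.51 in early-numbered tumor arrays and 2.22 ± 0.32 in controls (SD), with no late-numbered array below 6.57. The actin control, whose 5′ signal falls against its 3′ signal when cDNA is short, had a 5′ minus 3′ difference of -0.54 ± 0.28 in late-numbered, -1.42 ± 0.23 in early-numbered and -0.64 ± 0.10 in control arrays. The 18S rRNA control read 13.3 ± 0.18 in late-numbered, 13.7 ± 0.21 in early-numbered and 13.1 ± 0.24 in control arrays (SD). Cell-type markers moved as well, given in the order late-numbered, early-numbered and control arrays. The mean of 5 B cell markers was 8.38, 8.20 and 9.21, and that of 5 T cell markers 10.3, 9.93 and 10.8. For 6 neutrophil markers it was 12.5, 12.1 and 12.1, and for 5 erythroid markers 9.62, 10.1 and 9.53. For 6 monocyte markers it was 10.8, 10.3 and 10.5, and for 6 platelet markers 12.38, 11.94 and 12.25. Genes of a list did not all move alike. In early-numbered arrays 4 of 5 T cell markers lay below control, and Cd3e lay 0.14 above it. Of the 5 erythroid markers 4 lay above control in early-numbered and 3 in late-numbered arrays. The part of these differences in the results below was not tested except through the alternatives named beside them, and set and array handling cannot be told apart. Of the 93 arrays 6 correlated less with their own set than the rest, among them early-numbered validation array 2 and late-numbered validation array 19, and their effect is given where it touches a result. In a bulk sample, fewer cells of a type and less RNA per cell cannot be told apart.

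The proteasome degrades proteins that carry ubiquitin chains. Its barrel-shaped core is a stack of alpha rings, which gate the channel, around beta rings, which hold the proteolytic sites. The regulatory particle caps the core: its base has a ring of ATPases that unfold the substrate and other subunits that receive ubiquitin, and its lid removes the chain. In leukocytes the constitutive catalytic subunits share the work with immunoproteasome subunits that interferon induces, and in mammals the transcription factors Nfe2l1 and Nfe2l2 act on subunit genes through antioxidant response elements.

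Upstream sequence of a few of the genes described below is shown first, because many members moved in the same direction. RefSeq promoters (GRCm38.p6) were found for 29 of the 36 genes (not for Psma8, Psmb1, Psmb2, Psmb7, Psmc3, Psmd3 and Psmd7), in 31 promoters, since Psma6 and Psmc2 have more than 1, and the 250 bases before each start were searched on both strands for 4 motifs. These were the antioxidant response element TGACNNNGC, the ETS core CCGGAAG, the CCAAT box CCAAT and the TATA box TATAAA, and matches of different motifs were allowed to overlap. Some starts lie inside the outer RefSeq bounds of the gene, as for Psmb6, Psmd2 and the Psma6 promoter that holds the ETS core. The windows below belong to Psmd8 and Psmd13, lid genes high in late-numbered arrays, to Psmb3, a beta-ring gene low in early-numbered arrays, and to Psmd1, which ran the other way. They were chosen after the values were seen. Among the 36 genes Psmd8 had the largest late-numbered difference from control, and Psmd1 the lowest late-numbered minus early-numbered difference. Capitals mark matches to any of the 4 motifs.
Psmd8, chr7:29180674-29180923 (minus strand): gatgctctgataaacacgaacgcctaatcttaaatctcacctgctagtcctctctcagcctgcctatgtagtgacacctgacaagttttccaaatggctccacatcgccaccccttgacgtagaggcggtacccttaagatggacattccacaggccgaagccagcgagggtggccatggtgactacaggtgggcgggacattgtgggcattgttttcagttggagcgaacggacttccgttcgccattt
Psmd13, chr7:140882144-140882393 (plus strand): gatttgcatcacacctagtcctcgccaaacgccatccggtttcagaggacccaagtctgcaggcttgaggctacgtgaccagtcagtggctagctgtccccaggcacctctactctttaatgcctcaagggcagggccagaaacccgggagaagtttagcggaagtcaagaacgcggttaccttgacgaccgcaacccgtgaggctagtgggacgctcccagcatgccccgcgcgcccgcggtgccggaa
Psmb3, chr11:97703184-97703433 (plus strand): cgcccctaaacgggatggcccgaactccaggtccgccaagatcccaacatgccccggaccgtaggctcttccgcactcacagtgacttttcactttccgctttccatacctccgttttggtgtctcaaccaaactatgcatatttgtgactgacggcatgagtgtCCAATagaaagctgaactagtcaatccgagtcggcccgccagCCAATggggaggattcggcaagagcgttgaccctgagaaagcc
Psmd1, chr1:86064369-86064618 (plus strand): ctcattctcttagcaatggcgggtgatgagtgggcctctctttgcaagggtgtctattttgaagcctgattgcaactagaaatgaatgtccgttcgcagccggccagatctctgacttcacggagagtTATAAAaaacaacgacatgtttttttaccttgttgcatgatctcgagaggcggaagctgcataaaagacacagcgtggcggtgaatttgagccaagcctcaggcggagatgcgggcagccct

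Psmb3 held 2 CCAAT boxes and Psmd1 a TATA box, and the windows of Psmd8 and Psmd13 held none of the 4 motifs in these letters. The antioxidant response element was found in 5 of 31 promoters, 16.1%, against 10.2% of the 32851 RefSeq promoters searched the same way. It is shown in capitals in stretches of 30 bases. In Psmb6, a catalytic subunit, it lay at -9 to -1 from the start, in Psmb5, another catalytic subunit, at -47 to -39, and in the chaperone gene Psmd9 at -31 to -23.
Psmb6, chr11:70525327-70525356 (plus strand): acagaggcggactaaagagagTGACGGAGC
Psmb5, chr14:54618023-54618052 (minus strand): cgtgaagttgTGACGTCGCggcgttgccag
Psmd9, chr5:123228149-123228178 (plus strand): atctagccggTGACCCCGCccacttccaag
Psmd12, chr11:107479278-107479307 (plus strand): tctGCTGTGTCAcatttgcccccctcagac
Psmc6, chr14:45329587-45329616 (plus strand): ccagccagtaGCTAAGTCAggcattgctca

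The ETS core was found in 10 of 31 promoters, 32.3%, from 9 genes, against 6.91% of all promoters, and it is shown in capitals below, as CCGGAAG or its reverse complement, for an alpha-ring gene, a pair of ATPase genes and the ubiquitin receptor genes Psmd4 and Psmd2. A CCAAT box was in 12 of 31, 38.7%, against 33.8%, and a TATA box in 3 of 31, 9.68%, against 12.4%. A match is a description of the letters and not a site shown to be bound. Genes with the ETS core were called higher, called lower or not called in late-numbered arrays, as Psmd4, Psmc2 and Psmd6 were.
Psma6, chr12:55398682-55398711 (plus strand): agagccaccacCCGGAAGcccgcggaccgc
Psmc1, chr12:100110163-100110192 (plus strand): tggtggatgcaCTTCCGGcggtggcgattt
Psmd4, chr3:95042721-95042750 (minus strand): ttacagctgttCCGGAAGctgctgcgaagg
Psmd2, chr16:20651615-20651644 (plus strand): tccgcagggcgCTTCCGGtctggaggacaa
Psmc2, chr5:21785180-21785209 (plus strand): accagtgagcaCTTCCGGgatggggctcgc

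The first comparison set each set of tumor arrays against the same 28 controls, and then late-numbered against early-numbered arrays directly. In late-numbered tumor arrays 17 of the 36 genes were higher than in controls and 6 were lower, with a median difference of 0.11 on the log2 scale. Among all genes 25.6% were called higher and 20.5% lower, and among the 5633 genes read above 8 on the log2 scale, where 31 of the 36 lay, 32.8% and 37.8%. In early-numbered tumor arrays 26 of the 36 were lower than in controls and 2 higher, with a median difference of -0.44, against 29% of all genes lower and 34.3% higher, or 43.3% and 20.2% of the genes read above 8. Late-numbered exceeded early-numbered arrays in 27 of the 36 and fell below them in 3, with a median difference of 0.52, against 31.5% of all genes higher and 38.3% lower, or 44.4% and 33.2% of the genes read above 8. All of these calls come from a limma fit over all 45037 probe sets with cohort as a covariate, at a Benjamini-Hochberg adjusted p under 0.05.

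**Figure D1:**
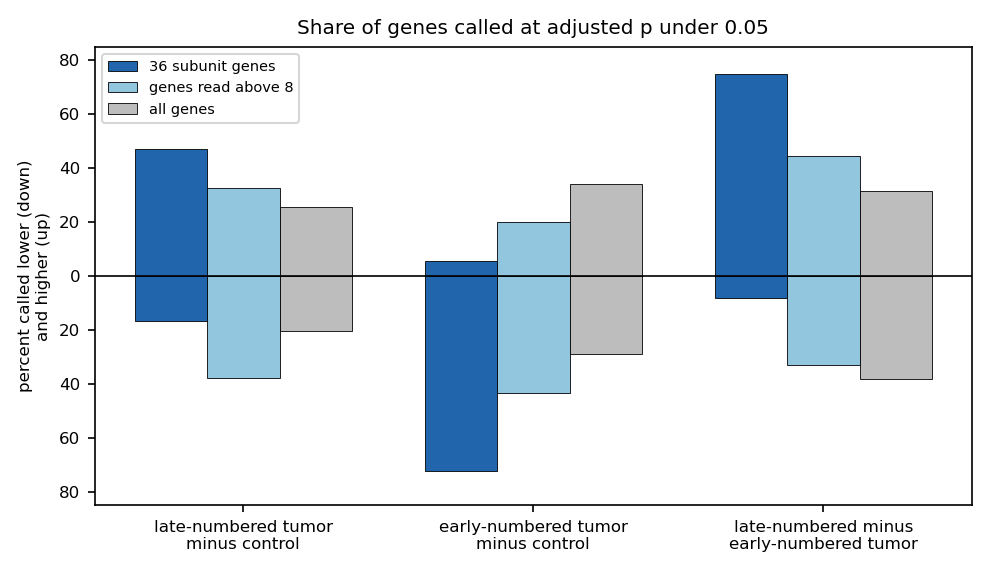
Percent of genes called higher (up) and lower (down) in each comparison, for the 36 subunit genes, the genes read above 8 on the log2 scale and all genes. The 36 genes reach 72.2% lower in early-numbered tumor arrays against control and 75% higher in late-numbered against early-numbered arrays.

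Both tumor sets are compared with the same controls, so their directions are not independent, and each gene's values are given side by side in the plot of differences from control. With no control array in common and no cohort term, 13 genes were called higher and 7 lower in late-numbered arrays against the training controls, where limma called 24.8% of all genes higher and 18.7% lower. In early-numbered arrays against the validation controls 24 were called lower, beside 24.3% of all genes, and 0 higher, beside 21.4%, with 1 higher at an unadjusted p under 0.05. With the 65 tumor arrays pooled, 8 genes were higher and 7 lower than in controls, with a median difference of 0.01, against 22.7% of all genes higher and 19.6% lower. In the pooled comparison 1 of 16 core genes was higher and 3 lower, and 7 of 20 regulatory genes higher and 4 lower. In late-numbered arrays 7 of 16 core genes were higher and 2 lower (median 0.11), and 10 of 20 regulatory genes higher and 4 lower (median 0.14). In early-numbered arrays 12 of 16 core genes were lower and 1 higher (median -0.45), and 14 of 20 regulatory genes lower and 1 higher (median -0.42). Late-numbered exceeded early-numbered arrays in 12 of 16 core and 15 of 20 regulatory genes.

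**Figure D2:**
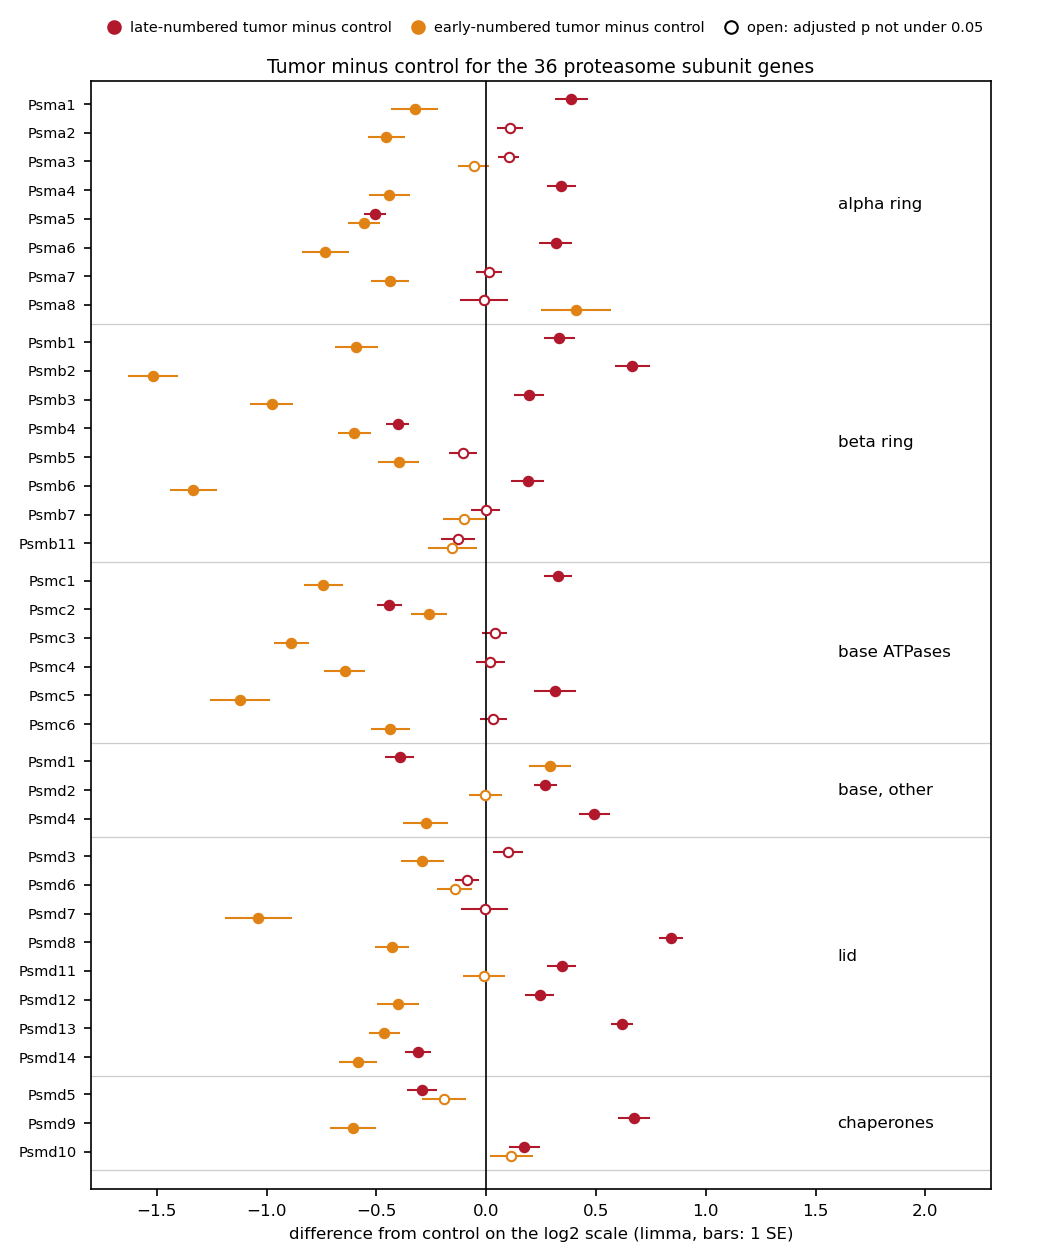
Difference from control on the log2 scale for each of the 36 genes, grouped by role, in late-numbered (dark red) and early-numbered (orange) tumor arrays, from limma with 1 SE. Filled points have an adjusted p under 0.05, and most orange points lie left of 0 while the dark red points lie on both sides, from -0.51 for Psma5 to 0.84 for Psmd8.

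Averaged over the 14 core genes read above the median probe set, the core level per array was 10.6 ± 0.21 in late-numbered arrays, 9.83 ± 0.28 in early-numbered arrays and 10.4 ± 0.15 in controls (SD). The mean of 17 regulatory genes, chaperones left out, was 9.67 ± 0.16, 9.10 ± 0.24 and 9.53 ± 0.10. The difference of the core mean from the regulatory mean was 0.88 ± 0.14 in late-numbered, 0.73 ± 0.14 in early-numbered and 0.91 ± 0.07 in control arrays. Since different probe sets are averaged, only the change of that difference between sets can be read. It ran from 0.42 to 0.91 in early-numbered and from 0.78 to 1.04 in control arrays, so these overlapped, and its change was not tested. Gene by gene, the early-numbered medians against control were close, at -0.45 for core and -0.42 for regulatory genes. The core mean includes Psmb2 and Psmb6, at -1.52 and -1.33 in early-numbered arrays. Late-numbered validation array 19 was the highest array on both means, and early-numbered validation array 2 the lowest.

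**Figure D3:**
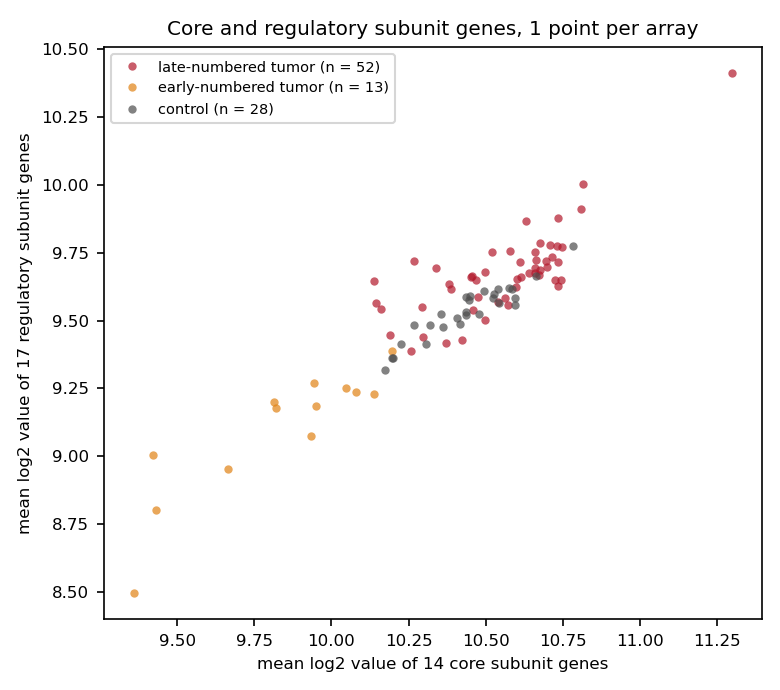
Mean log2 value of 14 core genes against that of 17 regulatory genes, 1 point per array. Early-numbered tumor arrays lie toward the lower left, from 9.36 to 10.2 on the core axis. Late-numbered arrays and controls overlap each other and lie mostly above them, from 10.14 and 10.17 upward on the core axis, with 1 late-numbered array far above at 11.3.

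Each cohort was also fitted alone. In the training arrays 10 genes were higher and 7 lower in late-numbered arrays than in controls, beside 20.4% and 17.4% of all genes, and in the validation arrays 16 and 6, beside 16.6% and 14.8%. Of these 10 higher and 6 lower genes were shared, and the late-numbered calls of Psma6, Psmb3, Psma4, Psmc5, Psmb6, Psmd12 and Psmd10 were not made in the training cohort. For early-numbered arrays 23 and 24 genes were lower in the training and the validation cohort, beside 22.2% and 22.6% of all genes, 22 of them shared, while the 2 genes called higher in the training cohort, beside 29% of all genes, were not called in the validation cohort, beside 19.8%. For late-numbered against early-numbered arrays 22 and 27 genes were higher in the training and the validation cohort, beside 26% and 28.1% of all genes, 22 of them shared. A limma interaction of cohort with the difference from control reached an adjusted p under 0.05 for 0 of the 36 genes, for late-numbered and for early-numbered arrays, with an unadjusted p under 0.05 for 2 genes in each. The share of all genes called for this interaction was not taken. With 5 and 8 early-numbered arrays in the cohorts, 0 calls do not show that the cohorts agree.

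The alpha ring, whose subunits gate the entry to the core, has 7 constitutive genes and the testis paralog Psma8. Of the 8, late-numbered arrays had 3 higher and 1 lower than controls, and early-numbered arrays 6 lower and 1 higher. Psma6 read 10.2 at the lowest, 11.1 at the median and 11.7 at the highest in late-numbered arrays, 8.96, 9.95 and 10.9 in early-numbered arrays, and 10.1, 10.8 and 11.1 in controls. The early-numbered values were the low ones, 7 of 13 below every control, and the sets overlapped. The difference from control was 0.32 ± 0.08 (SE, limma adjusted p = 0.000267) in late-numbered arrays and -0.73 ± 0.11 (limma adjusted p = 1.37e-08) in early-numbered arrays, and late-numbered minus early-numbered was 1.05 ± 0.10 (limma adjusted p = 3.62e-16).

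Psma5 was the alpha-ring gene that was low in both tumor sets. It read 9.54 at the lowest, 10.0 at the median and 10.6 at the highest in late-numbered arrays, 9.43, 9.93 and 10.4 in early-numbered arrays, and 10.3, 10.6 and 10.8 in controls. Of the late-numbered arrays 45 of 52 lay below every control, and of the early-numbered arrays 11 of 13. The difference was -0.51 ± 0.05 (SE, limma adjusted p = 1.33e-14) in late-numbered and -0.56 ± 0.07 (limma adjusted p = 5.16e-10) in early-numbered arrays, a value 0.704 and 0.68 times that of controls. Between the tumor sets the difference was 0.05 ± 0.07 (limma adjusted p = 0.514).

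Psma1 and Psma4 were higher in late-numbered arrays, by 0.39 ± 0.07 and 0.34 ± 0.07, and lower in early-numbered arrays, by 0.33 ± 0.11 and 0.44 ± 0.09 (SE). Another Psma1 probe set was not called in either, at 0.18 in late-numbered and -0.01 in early-numbered arrays. Psma2 and Psma7 were lower in early-numbered arrays only among the comparisons with control, at -0.45 ± 0.08 and -0.44 ± 0.09 there and at 0.11 ± 0.06 and 0.01 ± 0.06 in late-numbered arrays. By the probe set used, Psma3 was not called against control in either set. Its other probe set was called in both, at 0.31 in late-numbered and -0.41 in early-numbered arrays. Psma8, a subunit of the testis proteasome, had a mean of 4.16, 4.58 and 4.17 in late-numbered, early-numbered and control arrays, below the median probe set of 4.79. Its difference of 0.41 ± 0.16 (SE, limma adjusted p = 0.0198) in early-numbered arrays was not called in the validation cohort. Nor was it called with the actin or the marker covariates.

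The beta ring holds the proteolytic sites. Of its 8 genes, 4 were higher and 1 lower than controls in late-numbered arrays, and 6 were lower in early-numbered arrays. Psmb2, a structural beta subunit, showed the widest gap between the tumor sets among the 36 genes. It read 9.52 at the lowest, 10.3 at the median and 11.4 at the highest in late-numbered arrays, 7.04, 8.37 and 8.66 in early-numbered arrays, and 8.93, 9.64 and 10.1 in controls. All 13 early-numbered arrays lay below every late-numbered array and every control, and 35 of 52 late-numbered arrays above every control. Late-numbered minus early-numbered was 2.18 ± 0.10 (SE, limma adjusted p = 1.33e-34), a ratio of 4.54, with 0.67 ± 0.08 (limma adjusted p = 5.54e-12) for late-numbered and -1.52 ± 0.11 (limma adjusted p = 2.89e-21) for early-numbered arrays against control.

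The 3 catalytic subunit genes did not move alike. Psmb6, the caspase-like site, read 9.6 at the lowest, 10.8 at the median and 11.7 at the highest in late-numbered arrays, 8.05, 9.34 and 9.77 in early-numbered arrays, and 10.0, 10.6 and 10.8 in controls. All 13 early-numbered arrays lay below every control, while late-numbered arrays and controls overlapped. The difference from control was 0.19 ± 0.07 (SE, limma adjusted p = 0.0321) in late-numbered and -1.33 ± 0.11 (limma adjusted p = 2.03e-19) in early-numbered arrays. The late-numbered call was not made in the training cohort, at 0.09 ± 0.10 (limma adjusted p = 0.528).

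Psmb5, the chymotrypsin-like site and the main target of proteasome inhibitor drugs, read 10.2 at the lowest, 11 at the median and 11.5 at the highest in late-numbered arrays, 10.0, 10.7 and 11.1 in early-numbered arrays, and 10.6, 11 and 11.5 in controls. The 3 sets overlapped, with 12 of 13 early-numbered arrays below the control mean. The difference was -0.10 ± 0.06 (SE, limma adjusted p = 0.186) in late-numbered and -0.40 ± 0.09 (limma adjusted p = 0.000117) in early-numbered arrays, and it was 0.03 in early-numbered arrays with the actin 5′ minus 3′ difference as a covariate. Psmb7, the trypsin-like site, read 9.17 at the lowest, 10.1 at the median and 10.6 at the highest in late-numbered arrays, 9.19, 10.1 and 10.5 in early-numbered arrays, and 9.67, 10.1 and 10.4 in controls. It differed from control by -0.003 ± 0.066 (SE, limma adjusted p = 0.98) in late-numbered and -0.10 ± 0.09 (limma adjusted p = 0.359) in early-numbered arrays, and no call was made.

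**Figure D4:**
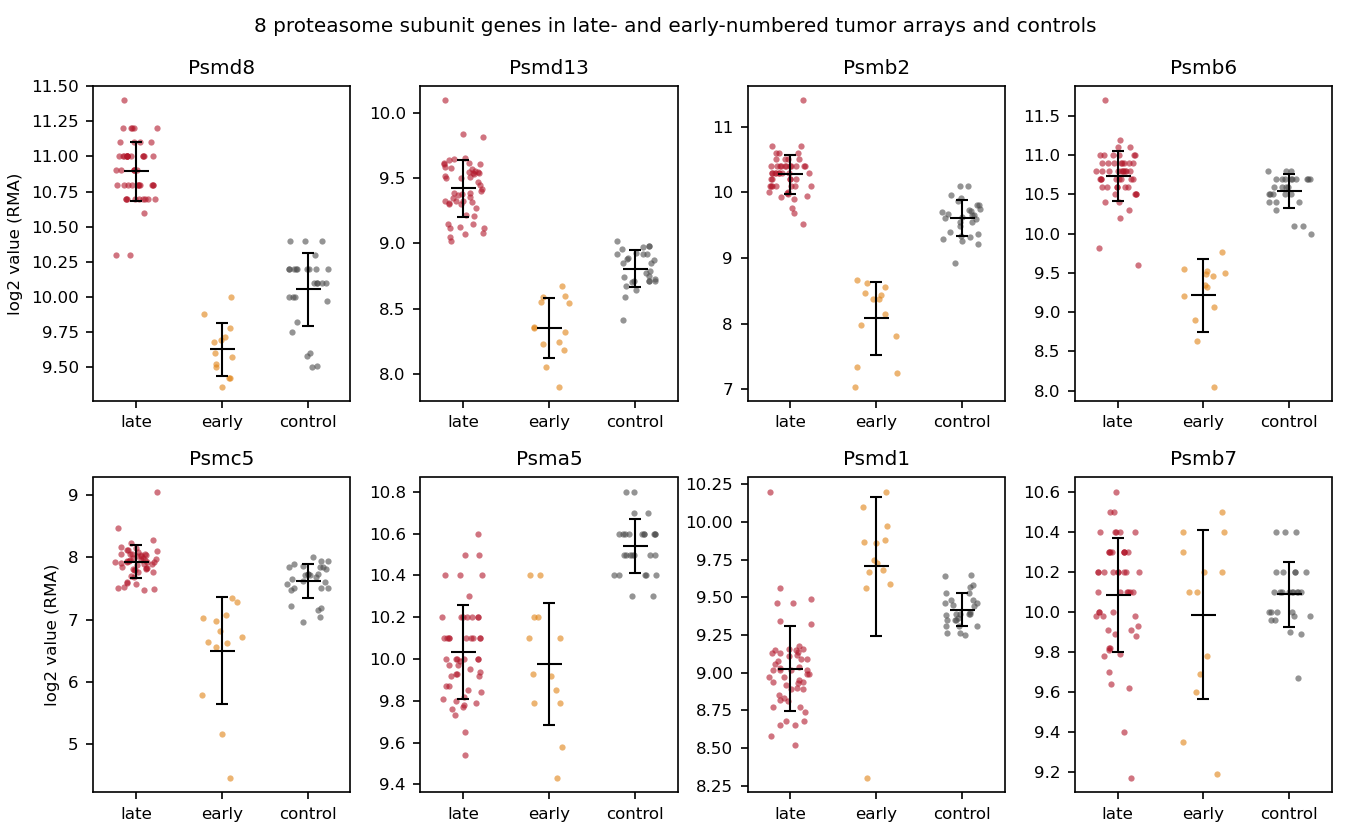
Log2 values of 8 genes, 1 point per array, in late-numbered tumor, early-numbered tumor and control arrays, with the mean and 1 SD. For Psmd8, Psmd13, Psmb2 and Psmc5 every early-numbered array lies below every late-numbered array, Psma5 is lower in both tumor sets, Psmd1 is lower in late-numbered arrays, and Psmb7 overlaps in all 3 sets.

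Psmb3, another structural subunit, read 10.4 at the lowest, 11.4 at the median and 12.7 at the highest in late-numbered arrays, 9.27, 10.3 and 10.8 in early-numbered arrays, and 10.9, 11.1 and 11.6 in controls, so that every early-numbered array lay below every control. Its difference was 0.20 ± 0.07 (SE, limma adjusted p = 0.0131) in late-numbered and -0.98 ± 0.10 (limma adjusted p = 9.95e-15) in early-numbered arrays. Psmb4 was low in both tumor sets, at -0.40 ± 0.05 in late-numbered arrays, 33 of 52 below every control, and -0.60 ± 0.08 in early-numbered arrays, 12 of 13 below every control. Its probe set may also read related transcripts, as the suffix of its name marks. Psmb1 was 0.33 ± 0.07 higher in late-numbered arrays and 0.59 ± 0.10 lower in early-numbered arrays. Its 2 other probe sets were not called, at -0.05 to 0.11 in late-numbered and -0.22 to -0.14 in early-numbered arrays. Psmb11, the beta subunit of the thymus proteasome, had a mean of 2.90, 2.87 and 3.03 in late-numbered, early-numbered and control arrays, below the median probe set, and was not called.

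By the probe sets used, all 6 ATPase genes of the base were lower in early-numbered arrays than in controls, and in late-numbered arrays 2 were higher and 1 lower. In early-numbered arrays another probe set of Psmc6 was called higher, at 0.36, and another of Psmc2 was at 0.05, not called. Another of Psmc4 was called lower, at -0.89. Psmc5 read 7.47 at the lowest, 7.94 at the median and 9.05 at the highest in late-numbered arrays, 4.46, 6.72 and 7.35 in early-numbered arrays, and 6.97, 7.70 and 8.01 in controls. Every early-numbered array lay below every late-numbered array, and 8 of 13 below every control. Late-numbered minus early-numbered was 1.43 ± 0.13 (SE, limma adjusted p = 3.08e-18), and early-numbered arrays differed from control by -1.12 ± 0.14 (limma adjusted p = 1.92e-11). The lowest value, 4.46, was early-numbered validation array 2, and without the 6 arrays that stood apart the difference from control was -0.99 ± 0.11.

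Psmc3, whose tail inserts into the alpha ring to open the gate, read 10.2 at the lowest, 10.7 at the median and 11.5 at the highest in late-numbered arrays, 8.81, 9.83 and 10.2 in early-numbered arrays, and 10.4, 10.7 and 10.8 in controls. Every early-numbered array lay below every control, and the late-numbered arrays spread around the control mean, 28 above it and 24 below. The difference was 0.04 ± 0.06 (SE, limma adjusted p = 0.622) in late-numbered and -0.89 ± 0.08 (limma adjusted p = 1.37e-16) in early-numbered arrays. Psmc4 and Psmc6 likewise were called in early-numbered arrays, at -0.64 ± 0.09 and -0.44 ± 0.09, and not in late-numbered arrays, at 0.02 ± 0.07 and 0.03 ± 0.06.

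Psmc1, another gate-opening ATPase, was 0.33 ± 0.06 higher in late-numbered arrays (SE, limma adjusted p = 5.46e-06), 35 of 52 above every control, and 0.74 ± 0.09 lower in early-numbered arrays (limma adjusted p = 2.06e-11), 10 of 13 below every control. Psmc2 was the ATPase gene that ran lower in late-numbered than in early-numbered arrays. It read 8.89 at the lowest, 9.47 at the median and 10.2 at the highest in late-numbered arrays, 8.77, 9.67 and 10.1 in early-numbered arrays, and 9.54, 9.86 and 10.3 in controls. The difference from control was -0.44 ± 0.06 (SE, limma adjusted p = 8.92e-11) and -0.26 ± 0.08 (limma adjusted p = 0.00378), and late-numbered minus early-numbered was -0.18 ± 0.07 (limma adjusted p = 0.0271). The probe set is of the kind that may read related transcripts, and with 3 components of the control probe sets as covariates the late-numbered difference was 0.0008 and not called.

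The base subunits that are not ATPases include the ubiquitin receptors. Psmd4, which binds ubiquitin chains, read 10.9 at the lowest, 11.7 at the median and 12.4 at the highest in late-numbered arrays, 10.4, 10.8 and 11.3 in early-numbered arrays, and 10.6, 11.1 and 11.7 in controls. Late-numbered arrays lay high, 48 of 52 above the control mean, and early-numbered arrays low, 11 of 13 below it. The difference was 0.49 ± 0.07 (SE, limma adjusted p = 5.8e-09) in late-numbered and -0.28 ± 0.10 (limma adjusted p = 0.0155) in early-numbered arrays, the second of which was 0.15 and not called with the actin covariate. Psmd2, which docks shuttle factors, was 0.27 ± 0.05 higher in late-numbered arrays (limma adjusted p = 1.12e-05), and in early-numbered arrays differed by -0.004 ± 0.076 (limma adjusted p = 0.971).

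Psmd1, a large scaffold of the base, ran opposite to most subunits. It read 8.52 at the lowest, 9.02 at the median and 10.2 at the highest in late-numbered arrays, 8.3, 9.75 and 10.2 in early-numbered arrays, and 9.25, 9.39 and 9.65 in controls. Of the late-numbered arrays 45 of 52 lay below every control, and of the early-numbered arrays 10 of 13 above every control. The difference from control was -0.39 ± 0.07 (SE, limma adjusted p = 3.62e-07) in late-numbered and 0.29 ± 0.10 (limma adjusted p = 0.00604) in early-numbered arrays, and late-numbered minus early-numbered was -0.69 ± 0.09 (limma adjusted p = 7.73e-11). The early-numbered call was made in the training cohort, at 0.46 ± 0.12, and not in the validation cohort, at 0.17 ± 0.15, where array 2 read 8.3. Without the 6 arrays that stood apart it was 0.40 ± 0.07 (limma adjusted p = 9.49e-07). With the actin or the marker covariates the early-numbered difference of Psmd1 was not called. With the control probe set components as covariates the late-numbered difference turned to 0.40 and late-numbered minus early-numbered to 0.25, and neither was called.

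Of the 8 lid genes 4 were higher and 1 lower in late-numbered arrays, 6 were lower in early-numbered arrays, and 7 were higher in late-numbered than in early-numbered arrays. Psmd8, known in yeast as the last subunit to join the lid, read 10.3 at the lowest, 10.9 at the median and 11.4 at the highest in late-numbered arrays, 9.36, 9.6 and 10.0 in early-numbered arrays, and 9.5, 10.1 and 10.4 in controls. Of the late-numbered arrays 50 of 52 lay above every control, and all 52 above every early-numbered array. The difference was 0.84 ± 0.05 (SE, limma adjusted p = 3.24e-25), a ratio of 1.79, in late-numbered arrays and -0.43 ± 0.08 (limma adjusted p = 1.62e-06) in early-numbered arrays. It held in both cohorts, at 0.74 ± 0.07 in training and 0.94 ± 0.09 in validation arrays for late-numbered tumor, and -0.42 ± 0.11 and -0.42 ± 0.11 for early-numbered tumor (training and validation, each SE).

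Psmd13, a lid subunit chosen after its values were seen, read 9.02 at the lowest, 9.41 at the median and 10.1 at the highest in late-numbered arrays, 7.9, 8.35 and 8.67 in early-numbered arrays, and 8.41, 8.82 and 9.02 in controls. Of the late-numbered arrays 51 of 52 lay above every control and the other equalled the highest control, while 8 of 13 early-numbered arrays lay below every control. The difference was 0.62 ± 0.05 (SE, limma adjusted p = 1.08e-19) in late-numbered and -0.46 ± 0.07 (limma adjusted p = 3.53e-08) in early-numbered arrays. Of its 2 other probe sets, 1 was called the opposite way in early-numbered arrays, at 0.38, and 1 the same way, at -0.55.

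Psmd14, the lid deubiquitinase that cuts the chain from the substrate, was low in both tumor sets. It read 9.45 at the lowest, 9.98 at the median and 11.1 at the highest in late-numbered arrays, 9.12, 9.69 and 10.1 in early-numbered arrays, and 10.1, 10.2 and 11.1 in controls. Of the late-numbered arrays 33 of 52 lay below every control, and of the early-numbered arrays 12 of 13. The difference was -0.31 ± 0.06 (SE, limma adjusted p = 6.24e-06) in late-numbered and -0.58 ± 0.09 (limma adjusted p = 1.04e-08) in early-numbered arrays, and with the control probe set components the late-numbered difference turned to 0.37 and was not called. Psmd7, the inactive partner of Psmd14, was read at 5.79 to 7.77 in late-numbered, 4.21 to 6.65 in early-numbered and 6.19 to 7.47 in control arrays, with differences of -0.01 ± 0.11 (limma adjusted p = 0.968) and -1.04 ± 0.15 (limma adjusted p = 1.08e-08).

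Of the other lid genes Psmd12 was 0.24 ± 0.07 higher in late-numbered arrays and 0.40 ± 0.09 lower in early-numbered arrays, and Psmd3 was lower in early-numbered arrays by 0.29 ± 0.10. Psmd11, which in yeast clamps lid, base and core together, was 0.34 ± 0.07 higher in late-numbered arrays and at -0.01 ± 0.10 in early-numbered arrays. With the control probe set components it was called lower in late-numbered arrays, at -0.82 (limma adjusted p = 0.00113). The 4 other probe sets of Psmd11 ran from -0.55 to -0.26 in early-numbered arrays, with 3 called lower. With the probe set used, Psmd6 was not called in any comparison. Another Psmd6 probe set was called at -0.17 in late-numbered arrays and at -0.22 for late-numbered minus early-numbered. These lid genes, and the other genes named here beside the rule, were chosen after their values were seen.

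Psmd5, Psmd9 and Psmd10 are carried by the symbol rule but encode chaperones that assemble the base and leave the finished proteasome. Psmd9 read 6.25 at the lowest, 7.15 at the median and 7.89 at the highest in late-numbered arrays, 4.87, 5.99 and 6.28 in early-numbered arrays, and 6.1, 6.5 and 7.03 in controls. Late-numbered arrays were high, 37 of 52 above every control, and early-numbered arrays low, 9 of 13 below every control. The difference was 0.67 ± 0.07 (SE, limma adjusted p = 1.77e-13) in late-numbered and -0.61 ± 0.10 (limma adjusted p = 5.66e-07) in early-numbered arrays. A second probe set for Psmd9 ran the other way, at -0.90 in late-numbered and 0.58 in early-numbered arrays, both called, so no direction is given for the gene. Psmd5 was 0.29 ± 0.07 lower in late-numbered arrays (limma adjusted p = 0.000229) and at -0.19 ± 0.10 (limma adjusted p = 0.0831) in early-numbered arrays, with the late-numbered value at 0.03 and not called with the control probe set components, and Psmd10, also known as gankyrin, was 0.17 ± 0.07 higher in late-numbered arrays (limma adjusted p = 0.0343).

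Of the 36 genes 19 have several probe sets, and the others of a gene were read where their mean was above the median probe set. Among the genes called in late-numbered against early-numbered arrays that had such a probe set, 11 of 15 had at least 1 other called the same way and 3 had at least 1 called the opposite way. These were Psmd9, Psmd11 and Psmc6, whose other probe set was at 0.36 in early-numbered arrays against control. Among the genes called in early-numbered arrays against control, 8 of 14 had another called the same way. There 3 had 1 called the opposite way, Psmc6, Psmd13 and Psmd9. In late-numbered arrays against control 8 of 11 had another called the same way and 2 the opposite way. For Psmd11 the 4 others ran from -1.57 to 0.67 in late-numbered arrays against control. For Psmb3 the second probe set gave a larger gap between the tumor sets, 1.79, than the one used, 1.17.

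**Figure D5:**
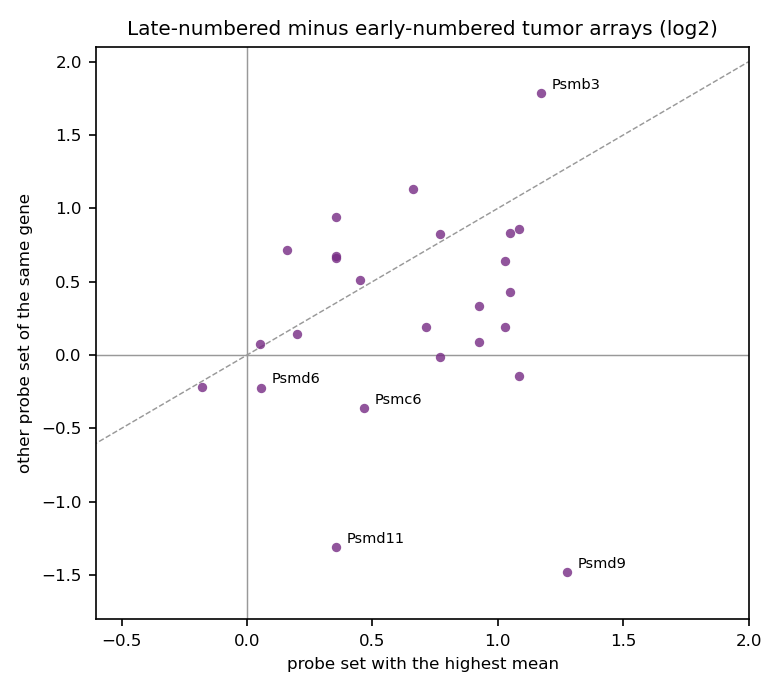
Late-numbered minus early-numbered difference on the log2 scale for each other probe set of a gene, against that of the probe set used, with the dashed line at equality. Most points lie above 0 on both axes, and Psmd9, at 1.28 and -1.48, lies farthest from the line.

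The rest of the proteasome pathway was read from lists. All 4 measured genes of the immunoproteasome and its PA28 cap were lower in early-numbered arrays, with a median of -1.54, and in late-numbered arrays 1 of 4 was higher, with a median of 0.12. Psmb10, the inducible trypsin-like subunit, read 8.74 at the lowest, 10.2 at the median and 11.4 at the highest in late-numbered arrays, 7.15, 8.27 and 8.82 in early-numbered arrays, and 9.5, 10.0 and 10.5 in controls, so that every early-numbered array lay below every control. Its early-numbered difference was -1.86 ± 0.12 (SE, limma adjusted p = 7.39e-25), beside -0.10 ± 0.09 for its constitutive counterpart Psmb7. The other inducible catalytic subunits, Psmb8 and Psmb9, were at -0.82 ± 0.11 and -1.37 ± 0.12 in early-numbered arrays, and the cap subunit Psme1 at -1.70 ± 0.11. Differences between these genes were not tested.

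The chaperones that assemble the core were lower in early-numbered arrays in 5 of 5 genes, led by Psmg3 at -1.54 ± 0.10 and Psmg2 at -1.28 ± 0.13, and in late-numbered arrays 1 was higher (Psmg3, 0.28 ± 0.07) and 1 lower (Psmg1, -0.36 ± 0.13). Of 5 other proteins bound to the regulatory particle, 1 was higher and 2 lower in late-numbered arrays and 2 higher and 1 lower in early-numbered arrays. Usp14, a deubiquitinase that docks on the base, read 6.25 to 8.93 in late-numbered, 7.59 to 9.28 in early-numbered and 6.63 to 8.22 in control arrays. It was 0.46 ± 0.09 lower in late-numbered arrays and 1.35 ± 0.13 higher in early-numbered arrays (SE, limma adjusted p = 1.44e-05 and 4.38e-15), with 12 of 13 early-numbered arrays above every control. The small lid subunit Sem1 followed the lid, at 0.53 ± 0.06 and -0.64 ± 0.09.

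Of 3 measured genes that act on proteasome gene transcription, 2 were higher in late-numbered arrays and 0 were called in early-numbered arrays, where 0 had an unadjusted p under 0.05 in limma. Nfe2l2, which binds antioxidant response elements, read 9.74 at the lowest, 11 at the median and 11.7 at the highest in late-numbered arrays, 9.0, 9.82 and 11 in early-numbered arrays, and 9.68, 10.2 and 10.5 in controls. Of the late-numbered arrays 49 of 52 lay above every control, and the difference was 0.85 ± 0.08 (SE, limma adjusted p = 4.44e-15). Ngly1, the glycanase that Nfe2l1 needs to become active, was 0.32 ± 0.06 higher in late-numbered arrays, and Nfe2l1 itself was at 0.08 ± 0.04 (limma adjusted p = 0.149).

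Shuttle and unfolding factors, which bring substrates to the proteasome, were higher in 1 and lower in 6 of 7 genes in late-numbered arrays, and higher in 2 and lower in 4 in early-numbered arrays. Vcp, the segregase that extracts ubiquitinated proteins, was the gene that was higher, by 0.51 ± 0.06 (SE, limma adjusted p = 1.29e-13) in late-numbered arrays, and lower by 0.32 ± 0.08 in early-numbered arrays. Its cofactor Ufd1 was 0.67 ± 0.05 lower in late-numbered arrays, and the shuttle factor Rad23b 0.46 ± 0.05 lower there and 0.64 ± 0.07 higher in early-numbered arrays. Of the 3 other activators and inhibitor, 2 were higher and 1 lower in late-numbered arrays, and 1 was higher in early-numbered arrays. The inhibitor gene Psmf1 was at 0.67 ± 0.19 and the activator gene Psme3 at -0.52 ± 0.16 in late-numbered arrays, and at -0.17 ± 0.27 and 0.19 ± 0.22, not called, in early-numbered arrays. Psme4, another activator, was higher in both tumor sets, at 0.50 ± 0.10 and 0.70 ± 0.14. Uba6, an enzyme that activates ubiquitin, was lower in both, at -0.71 ± 0.07 and -0.23 ± 0.10.

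The early-numbered decrease was read again with values that move with the sets held in the fit. With the actin 5′ minus 3′ difference as a covariate 19 genes were called lower in early-numbered arrays, 18 of them among the 26, beside 24.7% of all genes, and with the marker lists as covariates 21, 20 of them among the 26, beside 19.7%. With 3 principal components of the control probe sets as covariates 25 were lower in early-numbered arrays, beside 25.3% of all genes, while in late-numbered arrays 14 were higher, 11 of them among the 17, beside 11.7%. There 1 was lower, beside 8.7%, which was Psmd11, one of the 17, and 0 of the 6 lower genes were still called. The late-numbered median of the 36 genes was 0.57 in that fit, against 0.11 without the components. The control probe sets include the spike-in that separates late-numbered arrays from controls. Leaving out the 6 arrays that stood apart gave 16 higher and 6 lower genes in late-numbered arrays, beside 26.4% and 22.4% of all genes. In early-numbered arrays it gave 2 higher and 26 lower genes, beside 36.1% and 29.7%.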

How the data were processed

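The authors deposited log2 expression values made with RMA, which corrects background, quantile-normalizes probes across arrays and condenses each probe set by median polish. The sources used here give no version of it. Per its methods, the study also adjusted its data by principal components of the control probe sets. Nothing states if this adjustment is part of the deposited table. Values had 3 significant digits, in steps of 0.01 below 10 and 0.1 from 10 on, which touches the 19 members with a mean of 10 or more. Arrays give no counts, so the number of arrays limits precision.

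The 45037 probe sets that are not AFFX controls were fitted with limma 3.58.1 in R 4.3.3 (lmFit, eBayes with an intensity trend) on 3 sets, late-numbered tumor, early-numbered tumor and control, with cohort as a covariate, and tumor against control in a second fit. Tests were two-sided, adjusted by Benjamini-Hochberg over all probe sets, with an adjusted p under 0.05 as a call. The fit was tested on simulated data. Genes were named from probe sets with a single symbol in the platform annotation, and all 36 symbols were found in RefSeq. Differences carry a standard error (SE) and levels a standard deviation (SD).

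The members and gene lists were chosen with earlier results of these data known. Values are given for the catalytic subunits, the deubiquitinase, ubiquitin receptors, chaperones and paralogs, for the member of each symbol class with the smallest p in each direction and comparison, for the brightest and dimmest member of each class, and for up to 3 genes of each other list. Alternatives were each cohort alone, separate controls for each tumor set (training controls for late-numbered, validation controls for early-numbered arrays), a replicate block, no intensity trend, array weights, dim probe sets left out, the mean of a gene's probe sets, rescaled arrays, technical or marker covariates, and arrays left out. The Bayesian factor models of the study were not rebuilt.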

Additional observations from a re-analysis of the deposited data

Results flagged for a closer look

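Each of the 36 genes was examined within the 5 early-numbered training and within the 8 early-numbered validation arrays. There 7 single values lay far from the others of their set by Dixon's criterion, which chance meets in about 5% of sets. Over that many sets some such values come by chance. Validation array 2 was low for the ATPase genes Psmc5, at 4.46 against 6.56 to 7.29, and Psmc3, at 8.81 against 9.68 to 10.1, and for the base scaffold gene Psmd1, at 8.3 against 9.67 to 9.97. That array was also among the 6 that correlated less with their own set. Validation array 6 was high for the alpha-ring gene Psma6, at 10.9 against 9.57 to 10.2. In the training cohort, array 4 was high for the testis subunit gene Psma8, at 5.73 against 4.53 to 4.78, and for the lid gene Psmd11, at 10.3 against 9.86 to 9.98. Training array 2 was high for the deubiquitinase gene Psmd14, at 9.96 against 9.6 to 9.7.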

How the results depend on the processing

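Of 1155 called single-gene differences of the members recomputed under the alternatives, 1023 kept their direction and side of the threshold, 114 were no longer called and 18 turned. The count lower in early-numbered arrays ran from 19 to 26 under the alternatives other than leaving out single arrays, and scaling arrays to a common median or quantile normalizing again gave 25 and 26. Genes higher in late-numbered arrays numbered 10 in the training cohort alone against 17, and genes lower there numbered 1 with the control probe set components against 6. Genes higher in early-numbered arrays numbered 0 in the validation cohort alone (0 at an unadjusted p under 0.05 in limma) or against the validation controls (1), against 2. The count was 1 with array weights, dim probe sets left out, or the actin or marker covariates. Leaving out dim probe sets drops Psma8 from the fit. With the actin or the marker covariates the 1 gene was not among the 2. Genes lower in late-numbered than in early-numbered arrays numbered 1 in the validation cohort alone or with the actin covariate or the components, against 3. For all tumor arrays against controls, genes higher numbered 3 in the validation cohort alone, 17 with array weights, 4 with the mean of probe sets and 2 with the components, against 8, and genes lower numbered 4 in the validation cohort alone and 16 with the components, against 7. In the training cohort, leaving out each of the 5 early-numbered arrays in turn gave 1 to 2 genes higher and 18 to 25 lower, against 2 and 23, with the 1 without array 4. The share of all genes called was not taken with array weights, dim probe sets left out, the mean of probe sets, rescaled arrays or single arrays left out. Nor was it taken for all tumor arrays against controls under the alternatives. A change of those counts cannot be read as particular to the members.

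Over 28 pairs of equal label number the deviations from group means correlated at a median of -0.03, from -0.46 to 0.38, with 11 pairs over 0.1. The tumor group means pool early- and late-numbered arrays, so these correlations cannot show whether the label numbers pair arrays. With the number as a replicate block 9 genes were higher in late-numbered arrays, 1 higher in early-numbered arrays, 1 lower in late-numbered than in early-numbered arrays, and 0 higher (1 at an unadjusted p under 0.05) and 11 lower in all tumor arrays against controls. The share of all genes called with that block was not taken either.

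With the mean of a gene's probe sets, Psma1 was at -0.11 and Psmd11 at -0.046 in late-numbered arrays, and Psmd9 at -0.065 in late-numbered arrays, 0.10 in early-numbered arrays and -0.17 between them. With the actin covariate, Psmb5 was at 0.027 in early-numbered arrays and -0.19 for late-numbered minus early-numbered, and Psmd4 at 0.15 in early-numbered arrays. With the control probe set components, late-numbered minus control was 0.00081 for Psmc2, 0.40 for Psmd1, 0.37 for Psmd14, 0.033 for Psmd5 and -0.82 for Psmd11, and late-numbered minus early-numbered was -0.17 for Psmb5, 0.15 for Psmc2, 0.25 for Psmd1 and -0.66 for Psmd11. With the marker covariates Psma3 was at -0.022 for late-numbered minus early-numbered. Of these 18 turned values the 2 of Psmd11 with the components were called. For all tumor arrays against controls 7 genes turned with the components, of which Psmd11, Psmd4 and Psmd9 were called, at -0.30, -0.51 and -0.49, and 3 with the mean of probe sets, not called. The cause was not tested.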
